A study of Homo sapiens with 3 samples.

Results

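To describe where STAT6 was mapped without SOX4, the STAT6 peaks of Hep3B cells that overlapped no SOX4 peak by even 1 bp were taken from the deposited STAT6 list. These STAT6-only peaks were 230 of 1078 (21.3%, Wilson 95% interval 19.0% to 23.9%), and the other 848 STAT6 peaks, called shared below, overlapped at least 1 of the 4513 SOX4 peaks. The set was chosen by the peak calls themselves, so that all values of height and width below are descriptions and no test was made of them. Hep3B is an established human hepatocellular carcinoma line, grown here without a stated treatment, and 3 libraries were made from it by CUT&RUN, in which an antibody leads a nuclease to its target and the DNA released there is sequenced. The STAT6, SOX4 and IgG groups held 1 library each, with the unspecific IgG antibody as background for both peak lists. No value has a replicate check, and differences in depth or antibody cannot be told apart from differences in binding. Intervals of reads and folds cover counting error only. Those of shares and medians treat peaks as independent, which clustered peaks and repeat copies are not, so they may be too narrow.

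STAT6 is a transcription factor that is activated by JAK kinases when IL-4 or IL-13 binds its receptor, and as a dimer it favours pairs of TTC and GAA letters a few bases apart. SOX4 is a factor of the SOX family, which binds short sequences with an AACAAAG-like core. Centromeres and the flanks around them consist of satellite repeats in very many similar copies, and the genes of the 45S precursor of ribosomal RNA stand in tandem arrays on the short arms of acrocentric chromosomes. In such repeats a read can match many places, and the treatment of these reads was not given in the sources used here.

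For 3 of the 12 STAT6-only peaks with the highest fold enrichment, at EEF1A1, FTL and SERPINA7, the peak lay on the promoter window that RefSeq gives for GRCh38.p14, which runs from 250 bases before to 50 bases after the gene's start. These sequences are shown because they are the promoters under the highest STAT6-only peaks. Each is written 5′ to 3′ on the strand of the gene, with the bases under the peak in capitals. The EEF1A1 window is chr6:73520983-73521282 on the minus strand, that of SERPINA7 is chrX:106038678-106038977 on the minus strand, and that of FTL is chr19:48965059-48965358 on the plus strand.
EEF1A1: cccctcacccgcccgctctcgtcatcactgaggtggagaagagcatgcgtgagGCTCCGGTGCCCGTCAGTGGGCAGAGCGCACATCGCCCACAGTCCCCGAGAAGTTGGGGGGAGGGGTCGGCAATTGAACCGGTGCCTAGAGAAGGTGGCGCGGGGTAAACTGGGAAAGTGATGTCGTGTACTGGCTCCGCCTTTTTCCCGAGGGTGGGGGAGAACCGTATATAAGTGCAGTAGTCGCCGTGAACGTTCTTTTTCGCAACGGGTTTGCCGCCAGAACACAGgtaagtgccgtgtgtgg
SERPINA7: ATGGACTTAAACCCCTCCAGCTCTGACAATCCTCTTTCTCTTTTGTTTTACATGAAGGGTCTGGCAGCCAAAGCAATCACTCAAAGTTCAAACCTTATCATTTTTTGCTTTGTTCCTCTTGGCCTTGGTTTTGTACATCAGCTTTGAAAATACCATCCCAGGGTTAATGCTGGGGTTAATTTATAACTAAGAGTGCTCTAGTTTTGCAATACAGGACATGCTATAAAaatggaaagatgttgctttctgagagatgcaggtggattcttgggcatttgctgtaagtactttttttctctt
FTL: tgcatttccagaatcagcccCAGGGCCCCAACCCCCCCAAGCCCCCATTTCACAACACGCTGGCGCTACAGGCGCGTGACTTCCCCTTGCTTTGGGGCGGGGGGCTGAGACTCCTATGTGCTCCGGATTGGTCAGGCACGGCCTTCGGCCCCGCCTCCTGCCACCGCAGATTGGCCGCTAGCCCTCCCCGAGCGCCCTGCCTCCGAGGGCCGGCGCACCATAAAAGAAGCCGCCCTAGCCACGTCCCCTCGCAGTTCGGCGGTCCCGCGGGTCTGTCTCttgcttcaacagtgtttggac
The peak covered 230 of the 300 bases at EEF1A1, 227 at SERPINA7 and 259 at FTL. At EEF1A1 the whole peak lay inside the window, and the 6 bases that followed its last base were gtaagt. None of the 3 windows held TTCNNNNGAA, the spacing favoured by STAT6, on either strand, and none held TTCNNNGAA, the spacing of other STAT factors. The SOX core AACAAAG was found once, in the SERPINA7 promoter on the strand opposite to the gene, under the peak and 143 bases before the start. Among the 35116 promoter windows of the table, TTCNNNNGAA stood in 6.44%, TTCNNNGAA in 7.66% and AACAAAG in 5.20%, so that most promoters lack each of them. A missing match says only that these letters were not in the window. The windows differed in GC content, with 60.7% at EEF1A1, 66.3% at FTL and 39.0% at SERPINA7, beside a median of 58.7% over all promoters.

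STAT6-only peaks were narrow and low. Their median width was 276 bp (95% interval of the median 266 to 291, quartiles 239 and 370), whereas shared STAT6 peaks had a median width of 668 bp. A width below 300 bp was found for 137 STAT6-only peaks (59.6%) and for 65 shared peaks (7.67%). The fold enrichment over IgG had a median of 2.40 in the STAT6-only set, with quartiles of 1.78 and 3.36, and of 8.54 in the shared set. A fold of at least 5 was given to 17 of the 230 peaks (7.39%), and over the whole STAT6 list to 68.4%. A fold below 2 was given to 82 STAT6-only peaks (35.7%) and to 9 shared peaks.

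Most STAT6-only peaks stood on a high background. The deposited fold and p-value of every STAT6 peak could be solved for a whole number of reads stacked at the summit and for the background level that the caller derived from IgG there. This background is the number of reads the caller expected at the summit, not a raw IgG count. The lowest background of the STAT6 list was 2.16 reads. Of the STAT6-only peaks, 140 (60.9%) had a background of at least 10 times this floor, beside 22 shared peaks (2.59%). The background reached at least 100 times the floor at 52 STAT6-only peaks (22.6%) and at 12 shared peaks (1.42%). Conversely, 10 STAT6-only peaks (4.35%) and 295 shared peaks (34.8%) lay at the floor. The median number of reads was thus higher in the STAT6-only set, with 117 beside 32, although its fold was lower.

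**Figure D1:**
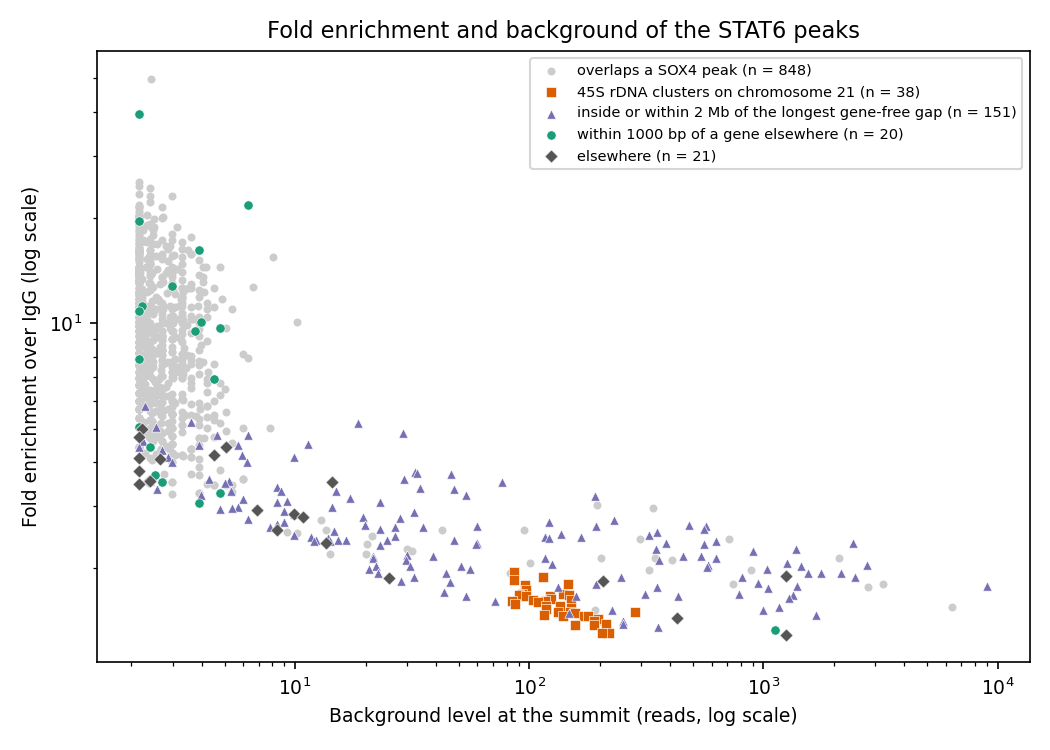
Each point is 1 STAT6 peak, with the background level at its summit in reads on the x axis and the fold enrichment over IgG on the y axis, both on log scales. Shared peaks (grey, n = 848) crowd at backgrounds near 2.16 with a median fold of 8.54, while the STAT6-only peaks, coloured by location, spread up to a background of 9037 at folds mostly below 5.

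The order of the peaks therefore depended on the measure. By −log10 q, which grows with the number of reads, 14 of the 20 highest peaks of the STAT6 list were STAT6-only, and all 14 lay beside the longest stretch without genes of their chromosome, with folds of 1.78 to 2.66 and backgrounds of 479 to 9037. The highest −log10 q of the whole list, 964, belonged to the STAT6-only peak at chr3:93470447-93470736, where 16097 reads on a background of 9037 made a fold of 1.78. By fold, in contrast, 2 of the 20 highest STAT6 peaks were STAT6-only, those at IGHG1 and EEF1A1.

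STAT6-only peaks lay far from protein-coding genes. No protein-coding gene was found within 500 kb of 161 peaks (70.0%, Wilson 95% interval 63.8% to 75.6%), beside 32 shared peaks (3.77%). The share was 35.2% for a window of 1 Mb, and with genes of any kind it was 36.5% within 500 kb, so that most peaks had some annotated gene in reach. The summit was inside an annotated gene for 39 STAT6-only peaks (17.0%) and 793 shared peaks (93.5%). Counting protein-coding genes alone, it was 7 (3.04%) and 707 (83.4%). Of the 43 STAT6-only peaks that overlapped a gene of any kind, 10 met a protein-coding gene, 13 an rRNA gene, 10 a transcribed pseudogene, 4 another pseudogene, 5 an immunoglobulin segment and 1 a long non-coding RNA. Summits within 1000 bp of a gene end numbered 29 (12.6%) in the STAT6-only set and 220 (25.9%) in the shared set.

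By location the 230 peaks fell into 4 classes. The longest stretch without an annotated gene on each chromosome, taken with 2 Mb on either side as a stand-in for the centromere and its flanks, held 151 peaks (65.7%), beside 27 shared peaks (3.18%). The 45S rDNA clusters of chromosome 21 held 38 peaks. Outside these, 20 peaks lay at a gene and 21 lay elsewhere. Chromosome 21 had the most STAT6-only peaks, with 43, followed by chromosome 4 with 35, chromosome 1 with 31 and chromosome 16 with 21.

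**Figure D2:**
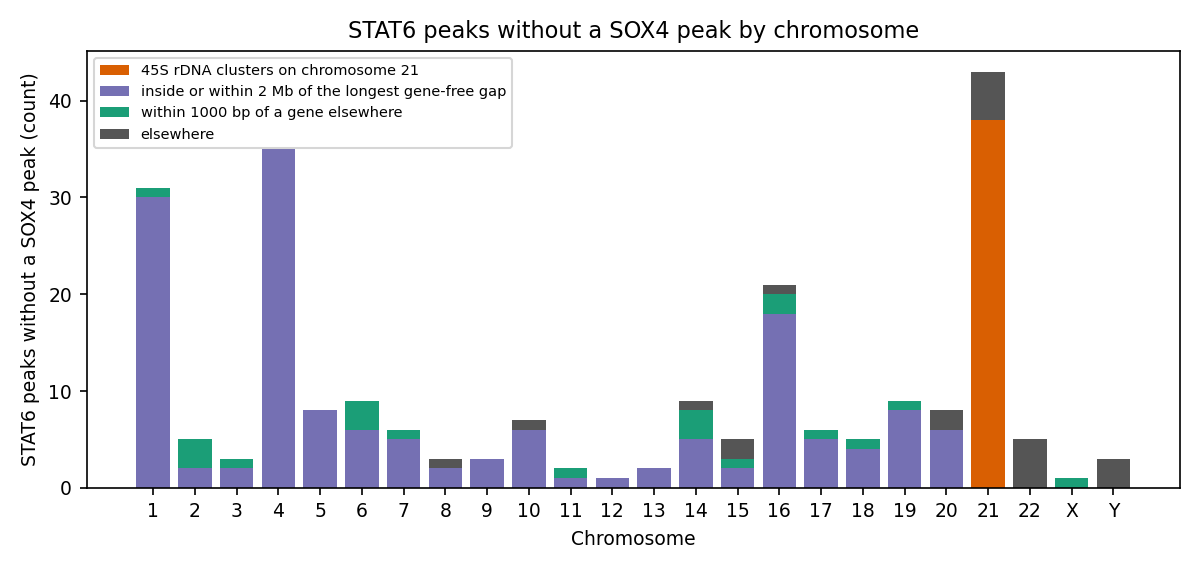
Bars give the number of STAT6-only peaks on each chromosome, stacked by location (45S rDNA clusters, the longest gene-free gap with 2 Mb on either side, a gene elsewhere, or none of these). Chromosomes 21, 4, 1 and 16 stand highest with 43, 35, 31 and 21 peaks, and all but 5 of the peaks on chromosome 21 belong to the rDNA clusters.

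Of the 151 peaks beside a gene-free gap, 126 lay inside the gap itself, and the 151 were spread over 20 chromosomes. Their fold ranged from 1.36 to 5.79 with a median of 2.44, and their background from 2.16 to 9037 with a median of 35.3. SOX4 peaks were not missing from these stretches. The same stretches held 246 SOX4 peaks, of which 220 met no STAT6 peak. The places differed in background. At the STAT6-only peaks the background was a median of 16.3 times the floor of the STAT6 list (upper quartile 161), and at the 220 SOX4 peaks it was a median of 1.59 times the floor of the SOX4 list (upper quartile 4.55). Their median fold was 3.03.

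Clusters, defined as at least 3 STAT6-only peaks with gaps of at most 100 kb, numbered 11 and held 108 peaks (47.0%). Shared peaks were in clusters of their own kind more often, with 709 of 848 (83.6%). The shared set held more peaks, which makes such chains easier to form, and the shares were not adjusted for this. The largest STAT6-only cluster beside a gap spanned 82.0 kb at chr1:143184848-143266894 and held 21 peaks. Within it the fold was 1.41 to 2.66, while the background was 252 to 2768 reads with a median of 1050. The highest of these 21 peaks by fold was at chr1:143203325-143203558, 699 kb from the nearest protein-coding gene, H3-7, a histone H3 gene. Shared peaks were interspersed among the STAT6-only peaks in this cluster. It held 6 shared STAT6 peaks with folds of 1.80 to 2.14, inside the range of the STAT6-only peaks, and 7 SOX4 peaks with folds of 1.15 to 1.47.

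Chromosome 4 carried its peaks in 3 clusters and single peaks over a wider stretch. The largest, chr4:50385357-50830772, held 10 STAT6-only peaks with backgrounds of 28.1 to 566 and folds up to 4.86, the latter at chr4:50605819-50606073. The coding genes on its sides were CWH43, a gene of lipid remodelling of membrane anchors, at 1323 kb and DCUN1D4, of the cullin neddylation machinery, at 1003 kb. A cluster of 8 peaks at chr4:49711539-49965300 and a cluster of 5 at chr4:51590015-51646092 lay on either side of it. From the first peak to the last cluster, 34 STAT6-only peaks, 2 shared STAT6 peaks and 15 SOX4 peaks were found, and most of the SOX4 peaks met no STAT6 peak although they stood in the same stretch.

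**Figure D3:**
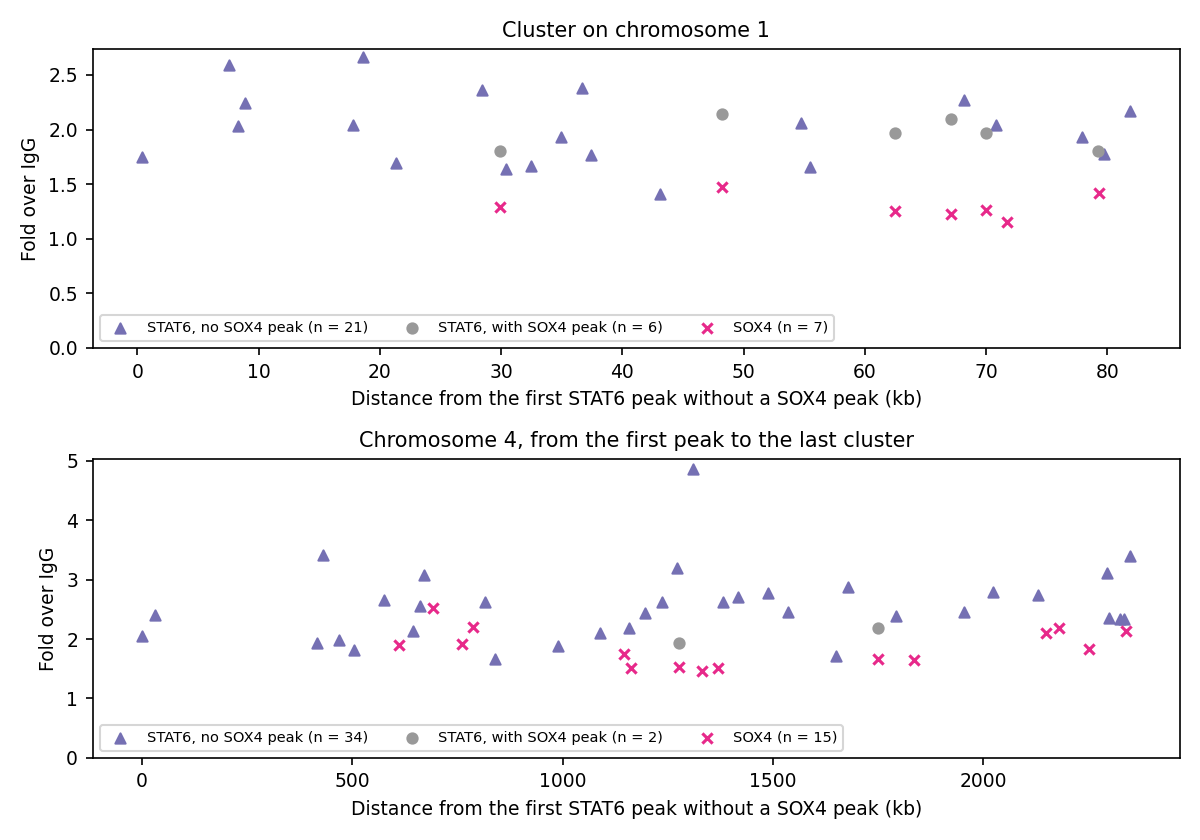
Each point is a peak, with its distance from the first STAT6-only peak in kb on the x axis and its fold enrichment over IgG on the y axis, for the cluster on chromosome 1 (upper panel) and for chromosome 4 (lower panel). On chromosome 1 the 21 STAT6-only peaks (fold 1.41 to 2.66) and the 6 shared peaks (1.80 to 2.14) lie among each other above most of the 7 SOX4 peaks (1.15 to 1.47), and on chromosome 4 the 34 STAT6-only and 15 SOX4 peaks interleave.

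Chromosome 16 had a cluster to the left of its gap and another inside it. The left cluster, chr16:34576379-34595149, held 9 peaks with a median background of 385 and a highest fold of 2.53, at chr16:34576379-34576616. The cluster at chr16:46380791-46401560 held 8 peaks with a median background of 972 and no shared or SOX4 peak. This stretch held 3 of the 5 widest STAT6-only peaks, which began at 46400048, 46389682 and 46398568 and were 1513, 1491 and 1064 bp wide. The other two of the 5 widest were on chromosome 21, at chr21:8392920-8394454 with 1535 bp and from 8424664 with 1069 bp. The narrowest STAT6-only peaks were 217 bp wide, which was also the narrowest width in the STAT6 list.

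The rDNA peaks of chromosome 21 formed 2 clusters, chr21:8203027-8260837 with 14 peaks and chr21:8386074-8469029 with 24. No SOX4 peak and no shared STAT6 peak lay within them, although chromosome 21 had 87 SOX4 peaks, and the nearest SOX4 peak was 53.7 to 319 kb away. Every rDNA peak was low on a middling background. The fold was 1.30 to 1.95 with a median of 1.57, the background 84.1 to 283 with a median of 134, and the reads 136 to 425.

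Of these 38 peaks, 13 overlapped a 45S gene, 5 in RNA45SN2, 4 in RNA45SN3 and 4 in RNA45SN1. Within the genes, 5 peaks met the 18S rRNA, the RNA of the small ribosomal subunit, and 8 met the 28S rRNA, that of the large subunit, while 0 met the 5.8S rRNA. The other 25 lay outside the 45S genes, and 8 of them were in pseudogenes of CDC27, a subunit of the anaphase-promoting complex. The summits 49.0 and 54.7 kb from the lower-coordinate end of RNA45SN2 lay in the pseudogenes RNA18SP5 and LOC110467529. All peaks were assigned to a unit by position alone. Some of the peaks recurred at like places of the units. Measured from the lower-coordinate end of the 45S gene and with a tolerance of 300 bp, 20 of the 38 summits had a counterpart in at least 1 other unit and 6 of them in all 3. These were the 18S summits at 5180 bp in RNA45SN2, 5165 bp in RNA45SN3 and 5126 bp in RNA45SN1, and the spacer summits at 33947, 33700 and 33861 bp. The remaining summits had no counterpart by this measure. Those in RNA18SP5 and LOC110467529 lay farther from the 45S gene than any summit assigned to RNA45SN3 or RNA45SN1. Matches measured from another origin were not sought for them, so the count of 20 may be too low. The number of matches by position alone was not estimated. The units are near-identical copies, so the peaks cannot be counted as independent sites.

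**Figure D4:**
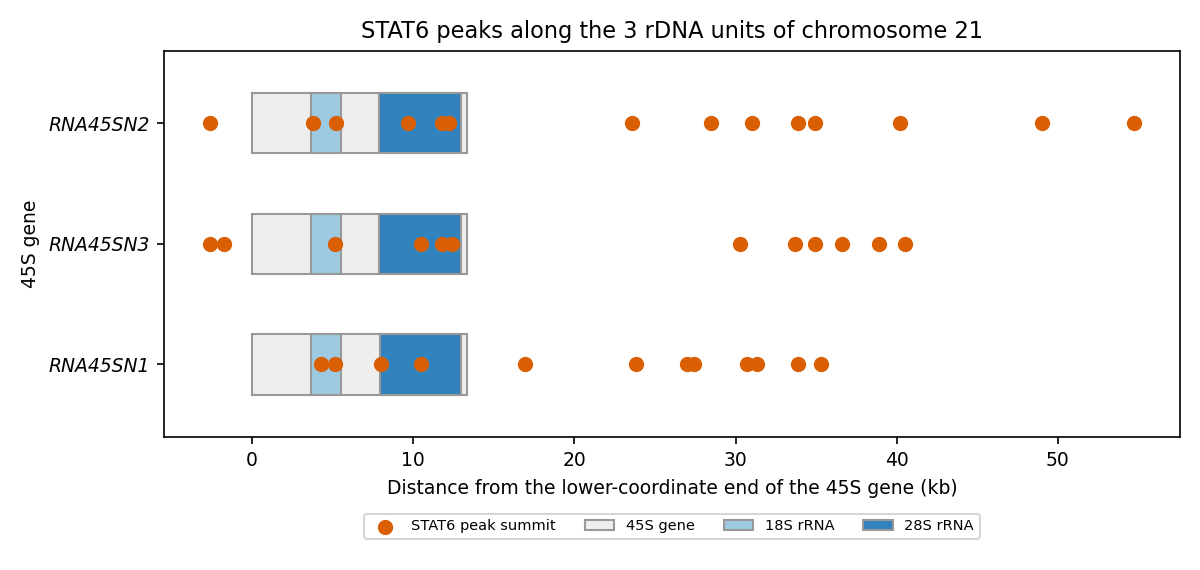
Points are STAT6-only summits of the rDNA clusters of chromosome 21, each assigned by position alone to 1 of 3 units. The x axis gives the distance from the lower-coordinate end of the 45S gene in kb, and the y axis the units. Boxes mark the 45S gene with the 18S and 28S rRNA. Summits fall on the 18S and 28S rRNA in each unit (13 peaks in all) and again in the spacer, with 1 set of summits near 5 kb and 1 near 34 kb shared by all 3 units.

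The 12 STAT6-only peaks with the highest fold were of another kind, although ranking by fold itself favours a low background. All lay at genes and on a low background of 2.16 to 6.28 reads, with 24 to 157 reads at the summit and folds of 6.92 to 39.5. None stood in a cluster. Whether any of their reads came from DNA other than the cells' own genome was not tested. The next peak in order, chr18:19429537-19429795, had a fold of 5.79 and lay 1517111 bp from the nearest gene, ROCK1. Of the 12 peaks that came next by fold, 9 belonged to the gap class, with the 12 at folds of 4.53 to 5.79 and 14 to 145 reads.

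Immunoglobulin genes made up 5 of these 12 peaks. IGHG1, the constant region of the heavy chain of IgG1, had the highest at chr14:105741469-105742225, with 124 reads (exact Poisson 95% interval 103 to 148) on a background of 2.16 and a fold of 39.5 (32.9 to 47.1), the second highest of the STAT6 list. The peak covered 753 bp of the gene, 47.1% of its length, from its lower-coordinate end. IGHG2, its IgG2 counterpart, had 35 reads (24.4 to 48.7) and a fold of 11.2 at chr14:105643201-105643524, again at the lower-coordinate end. The variable segment IGHV3-23 had 78 reads (61.7 to 97.3) and a fold of 16.2 at chr14:106268608-106268902.

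The light-chain segments IGKV1D-39, at chr2:89862695-89862964, and IGKV1-39, at chr2:89319640-89319906, are near-identical copies of each other. Their reads were 50 (37.1 to 65.9) and 49 (36.3 to 64.8), with folds of 12.8 and 10.1. As reads of such a pair may be split between the copies, both values are uncertain. The peaks covered 56.8% and 56.2% of their segments. Of the 15 immunoglobulin constant genes, IGHG1 and IGHG2 had a STAT6-only peak and none had a shared or a SOX4 peak within 1000 bp. Over all 59702 annotated genes, 40 (0.0670%) had a STAT6-only peak within this margin. The immunoglobulin genes are normally rearranged and transcribed in cells of the B lineage.

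EEF1A1 encodes an elongation factor of translation and FTL the light chain of ferritin, the store of iron, and the EEF1A1 promoter is also in common use in expression vectors. The EEF1A1 peak, chr6:73521000-73521229, had 157 reads (133 to 184) on a background of 6.28 and a fold of 21.7, and its summit lay 121 bp before the gene's start. The FTL peak, chr19:48965079-48965337, had 37 reads (26.1 to 51.0) on a background of 4.49 and a fold of 6.92, with its summit 117 bp before the start. Both belong to a list of 30 genes of high output in liver cells. Of this list, these 2 (6.67%) had a STAT6-only peak, 2 had a shared peak and 2 a SOX4 peak. Over all protein-coding genes, 0.0549% had a STAT6-only peak, 1.09% a shared peak and 6.41% a SOX4 peak. The list was chosen with earlier results of these data known, so its shares are no test of enrichment. SERPINA7 encodes the thyroxine-binding globulin made by the liver. Its promoter, too, is used in vectors for liver cells. Its peak, chrX:106038751-106039160, had 24 reads (15.4 to 35.7) on the floor background and a fold of 7.90, and its summit was 181 bp before the start.

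The remaining peaks of the 12 lay within or at the end of genes. HBB encodes the beta chain of haemoglobin, and its peak, chr11:5225203-5225597, crossed the lower-coordinate end of the gene with 134 of its 395 bp inside. It had 61 reads (46.7 to 78.4) and a fold of 19.6. UBB, a polyubiquitin gene, held a peak of 614 bp at chr17:16382083-16382696 with 33 reads (22.7 to 46.3), a fold of 10.8 and its summit 892 bp after the start. SOX4 itself, a gene without introns, held a pair of STAT6-only peaks. The wider, chr6:21594533-21595395, had 55 reads (41.4 to 71.6) and a fold of 9.68 at 962 bp after the start, and the narrower, chr6:21595671-21595956, had 44 reads (32.0 to 59.1) and a fold of 9.51 at 2117 bp. The read intervals of the pair overlap.

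**Figure D5:**
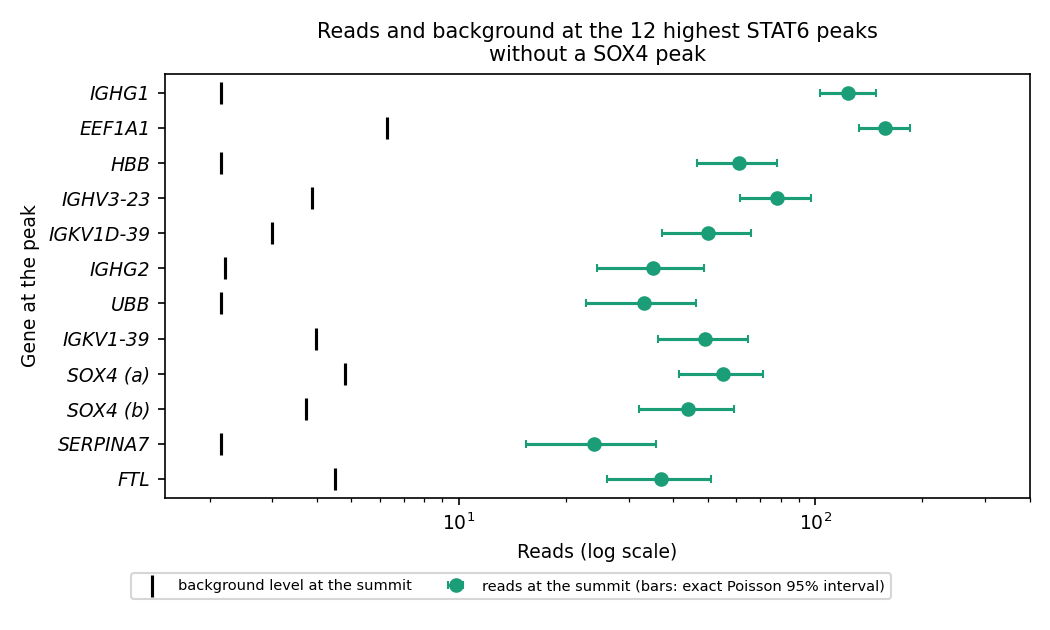
For the 12 STAT6-only peaks with the highest fold, named by gene on the y axis, points give the reads at the summit on a log x axis with exact Poisson 95% intervals, and black ticks give the background level there. All 12 intervals lie above their background of 2.16 to 6.28 reads, which follows from their choice as called peaks with the highest fold. The counts run from 24 at SERPINA7 to 157 at EEF1A1.

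The other STAT6-only peaks in coding genes were low. They were at ASPM, a spindle-pole protein gene (fold 3.54, 11 reads), SCFD2, of the vesicle-fusion Sec1 family (3.37, 11 reads), CALM2, a calmodulin gene (3.28, 18 reads), and EIF4A2, an RNA helicase of translation initiation (3.07, 14 reads). In these the summit was 5896 bp or more from the gene's start where the table gave one. RFC4, a subunit of the clamp loader of replication, lay 427 bp from the EIF4A2 summit. In all, 22 of the 230 STAT6-only peaks rested on 15 reads or fewer, with folds of 3.07 to 5.06. Of the 848 shared peaks, 49 did so, which is a smaller share.

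Pseudogenes were met as well. CES1P1, a pseudogene of the carboxylesterase gene CES1, held 2 peaks with folds of 5.06 and 4.42, and a further peak with 4.74 stood 10679 bp beyond it. These 3 formed the single cluster outside the gaps and the rDNA, at chr16:55769866-55785898, with 14 to 15 reads each, 1 shared STAT6 peak among them and CES1 17.0 kb away.

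Beyond the 12 highest, 29 peaks lay outside the rDNA clusters and the gaps. Of these, 13 were on chromosomes 21, 22 or Y, where the longest gene-free gap lay elsewhere, and 12 of the 13 had no coding gene within 500 kb. The other 16 had folds of 1.29 to 5.06. At chr15:46951859-46952088 a peak with a fold of 4.97 and 15 reads lay 232 kb from SEMA6D, a semaphorin gene. Peaks on a high background included those beside DUX4-like pseudogenes, with 206 at DUX4L19 and 427 at DUX4L16. Others had no such neighbour named, with 1248 at chr21:7926308-7926539 and 1116 at the pseudogene ROCK1P1 on chromosome 18. The lowest fold of all STAT6-only peaks, 1.29, was beside DUX4L20 on chromosome 10, on a background of 1246.

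The genes tied to STAT6 were set beside all coding genes. Over all 20050 protein-coding genes, 11 (0.0549%) had a STAT6-only peak within 1000 bp, 218 (1.09%) a shared one and 1285 (6.41%) a SOX4 peak. A count of 0 in a short list is near the first of these shares. Within 1000 bp of the 20 genes of IL-4 and IL-13 signalling, from the receptors to JAK kinases and SOCS inhibitors, 0 had a STAT6-only or shared STAT6 peak, and 2 had a SOX4 peak. Of 23 genes known to answer to STAT6, 0 had a peak of any of the 3 kinds. Of the 224 genes of drug-metabolism and channel families, 0 had a STAT6-only peak, 67 (29.9%) a shared peak and 91 (40.6%) a SOX4 peak. These families were listed with earlier results of these data known, so their shares are no test of enrichment.

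The distance to the nearest SOX4 peak had a median of 93.8 kb, from 319 bp to 2970 kb. It was under 1 kb for 7 STAT6-only peaks, under 10 kb for 34 and above 100 kb for 108. The closest, at 319, 337 and 498 bp, were all in the chromosome 1 cluster, with folds of 1.78, 1.64 and 2.04. Outside the set, the shared peaks with the shortest overlap with SOX4 in bp were narrow. The overlap was 216 bp at chr4:51711942-51712222 (fold 2.06). It was 221 bp at chr19:38464507-38464727 in RYR1, a calcium release channel gene (fold 4.26), and at chr20:26541916-26542136 (fold 1.40). The chr19 and chr20 peaks lay wholly within a SOX4 peak, so they were not near the border of the rule. Low peaks beside a gene-free gap were thus found in the shared set as well.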

How the data were processed

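The authors made CUT&RUN libraries from Hep3B cells and handled the reads with Partek Flow. The submitters' processing notes name BWA, Partek and hg38, and the caller's settings were not given in the sources used here. For each peak the authors deposited positions (written 1-based here), a fold enrichment over IgG (a ratio) and the −log10 p and −log10 q. No read totals were used, so depth is unknown. Peaks were compared by overlap of at least 1 bp. Reads k and background λ were solved from fold = (k + 1)/(λ + 1) and an upper-tail Poisson p-value, an assumed form that fitted all 1078 STAT6 and all 4513 SOX4 peaks with misfits of at most 0.00445 and 0.00601 in −log10 p. The next whole number missed by at least 0.0125 for STAT6 and by as little as 0.00267 for SOX4, and 6 SOX4 peaks were thus not settled within 0.01. Of the 220 SOX4 peaks whose background is given, 1 was among these, and 1 read more or less moved its background by 0.116%. The lowest background was 4.49 in the SOX4 list, 2.07 times that of STAT6. Intervals of reads and folds are exact Poisson with the background held fixed, and those of shares are Wilson, all at 95%. Genes and promoters came from RefSeq tables of GRCh38.p14, the build named hg38. Immunoglobulin segments were not counted as protein-coding genes.

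The genes and peaks named were drawn from the 12 highest by fold and the next 12, all at coding genes, and the 5 widest and narrowest. They also came from the highest of the 5 largest clusters and members of the gene lists. The STAT6-only peaks nearest to a SOX4 peak and the shared peaks with the shortest overlap in bp were drawn too. Not every peak of these groups was named. Most of the next 12, the narrowest peaks and the highest rDNA peaks were described as groups only. The peaks at DUX4L16, DUX4L19, DUX4L20 and ROCK1P1, that at chr21:7926308-7926539 and the rDNA offsets were picked after their values were seen. The peaks and lists were chosen with earlier results of these data known. The alternatives were stricter peaks, other overlaps, margins, windows and gaps, and chromosomes 1 to 22 and X. The solving routine was tested on simulated data. Python 3.11.15 was used with numpy 2.4.6, scipy 1.17.1, pandas 2.3.3 and matplotlib 3.10.9.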

Additional observations from a re-analysis of the deposited data

How the results depend on the processing

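No paired analysis was possible because STAT6, SOX4 and IgG were each profiled in 1 library. The number of STAT6-only peaks fell from 230 to 17 when folds under 5 were dropped and to 141 when −log10 q values under 5 were, and was 913 when sharing needed an overlap of 50% of both peaks. The median width was 295 bp with a fold of at least 5. The share without a coding gene nearby was 90.0% within 100 kb, 35.2% within 1 Mb and 36.5% when any gene counted. With coding genes alone, 3.04% of summits were inside a gene and 3.48% within 1000 bp of an end, and a margin of 3000 bp gave 21.3%. Clusters held 37.8% with gaps of at most 30 kb and 66.1% with 300 kb, and 86.1% lay within 5 Mb of the gene-free gap. The other 12 of 25 alternatives, over 7 results, stayed within the interval or within 1.5 times the count. The gene-free gap stands in for centromere positions, which were not analysed here, and on 21, 22 and Y it lay away from the peaks without coding genes. Exons and sequence under peaks outside promoters were not analysed here.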
